A study of Mus musculus with 2 samples.

Results

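Kinesins are motor proteins that walk along microtubules or take them apart, and spermatogenesis uses them from the mitotic spindle of spermatogonia to the flagellum of the sperm. The genes described here are every symbol in the deposited feature lists that is written Kif, a number and at most 2 further letters. This rule gave 39 of 30052 symbols, and all 39 were listed in both libraries. One of them, Kif1bp, encodes a kinesin binding protein and not a motor. The study measured poly(A) RNA of single cells from the testes of adult mice in 1 WT library and 1 Nsun7 knockout library. Nsun7 belongs to a family of RNA 5-methylcytosine methyltransferases, and the title of the series calls its product inactive as a catalyst and a regulator of flagellum assembly. The labels give genotype, tissue and adult age, while strain, allele and number of animals per library are not given there. The question put to these data is how kinesin RNA is distributed over the germ cell stages and somatic cells of the testis, and whether that distribution differs between the 2 libraries.

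Kinesins are sorted into families by their motor domain. Kinesin-1 and kinesin-3 motors carry membranes and other cargo, and kinesin-2 motors also drive transport into cilia and flagella. Motors of the families kinesin-5, kinesin-6, kinesin-8, kinesin-10 and kinesin-12 act mostly on the spindle, on chromosomes and at the bridge between dividing cells. Kinesin-4 is mixed, with Kif4 acting on chromosomes and Kif7 and Kif27 known from cilia. Kinesin-9 motors sit in motile axonemes, and kinesin-13 proteins shorten microtubules at their ends. Male germ cells stay joined by intercellular bridges, and spermatids build a manchette, a sleeve of microtubules around the nucleus, and a flagellum at the same time.

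The WT library held 16376 barcodes with 220247156 counts and the knockout library 16837 barcodes with 210531446 counts. After removal of barcodes with fewer than 200 genes or over 20% mitochondrial counts, 15139 and 13869 remained, with a median of 8723 and 12020 counts. Cells were clustered without any kinesin, partner or Nsun7 count, so that no member helped to form the classes in which it is read. The germ classes were spermatogonia-like cells (1007 WT and 398 knockout cells), cluster 21 (879 and 413), early spermatocyte-like cells (171 and 55), late spermatocyte-like cells (3609 and 1199), round spermatid-like cells (2473 and 2024) and elongating spermatid-like cells (4885 and 8186), and below they are called by the stage alone. Cluster 21 is left unnamed because its leading genes Stra8, Prss50, Taf7l, Zcwpw1 and Dmc1 hold markers of both spermatogonia and early spermatocytes. Each named class had at least 7 of its own markers at 20 CPM or more in both libraries. Elongating spermatid markers were also present in the spermatogonia, where they summed to 10279 CPM in WT against 14615 CPM in the knockout one, beside 223748 and 245111 CPM in elongating spermatids, and free RNA between droplets was therefore estimated for each class. Nsun7 was at 217 CPM in WT late spermatocytes and 52.4 CPM in knockout ones, and its CPM was lower in the knockout library in every class compared. The libraries shared 2168 barcode names, but these names are running numbers and show no shared cells.

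With 1 library per genotype there is no replicate and no test. Levels are counts for each 1000000 counts of the class (CPM), intervals are exact 95% ones, and they cover counting error only. CPM is not divided by gene length, so each gene is compared with itself over classes and not with other genes. Values over the germ classes are given in the order spermatogonia, cluster 21, early spermatocytes, late spermatocytes, round spermatids and elongating spermatids.

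Most kinesin genes had their highest level in a germ cell class, and for most of them that class was the same in the 2 libraries. In WT, 35 of 39 members reached 10 CPM in at least 1 class. Of these, 8 were highest in spermatogonia, 8 in cluster 21, none in early spermatocytes, 5 in late spermatocytes, 2 in round spermatids, 5 in elongating spermatids and 7 in a somatic class. The 4 members below 10 CPM in every class were Kif12, Kif19a, Kif26b and Kif28. The same class was highest in both libraries for 30 of 39 members, of which 29 reached 10 CPM. Only classes with at least 50 cells in a library were ranked there. Peritubular myoid cells, with 122 WT and 41 knockout cells, were thus ranked in WT only. Kif1c and Kif26a, highest there in WT, could not have the same class in both. Between consecutive germ classes, 77 of 122 steps measured in both libraries were at least 1.5-fold in WT, and 76 of those 77 had the same direction in the knockout library. The exception was Kif20b from cluster 21 to early spermatocytes, a class with only 55 knockout cells. The classes came from a joint clustering of both libraries, and these counts were not made over all genes. Whether the likeness of the libraries is particular to kinesins was therefore not tested.

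**Figure D1:**
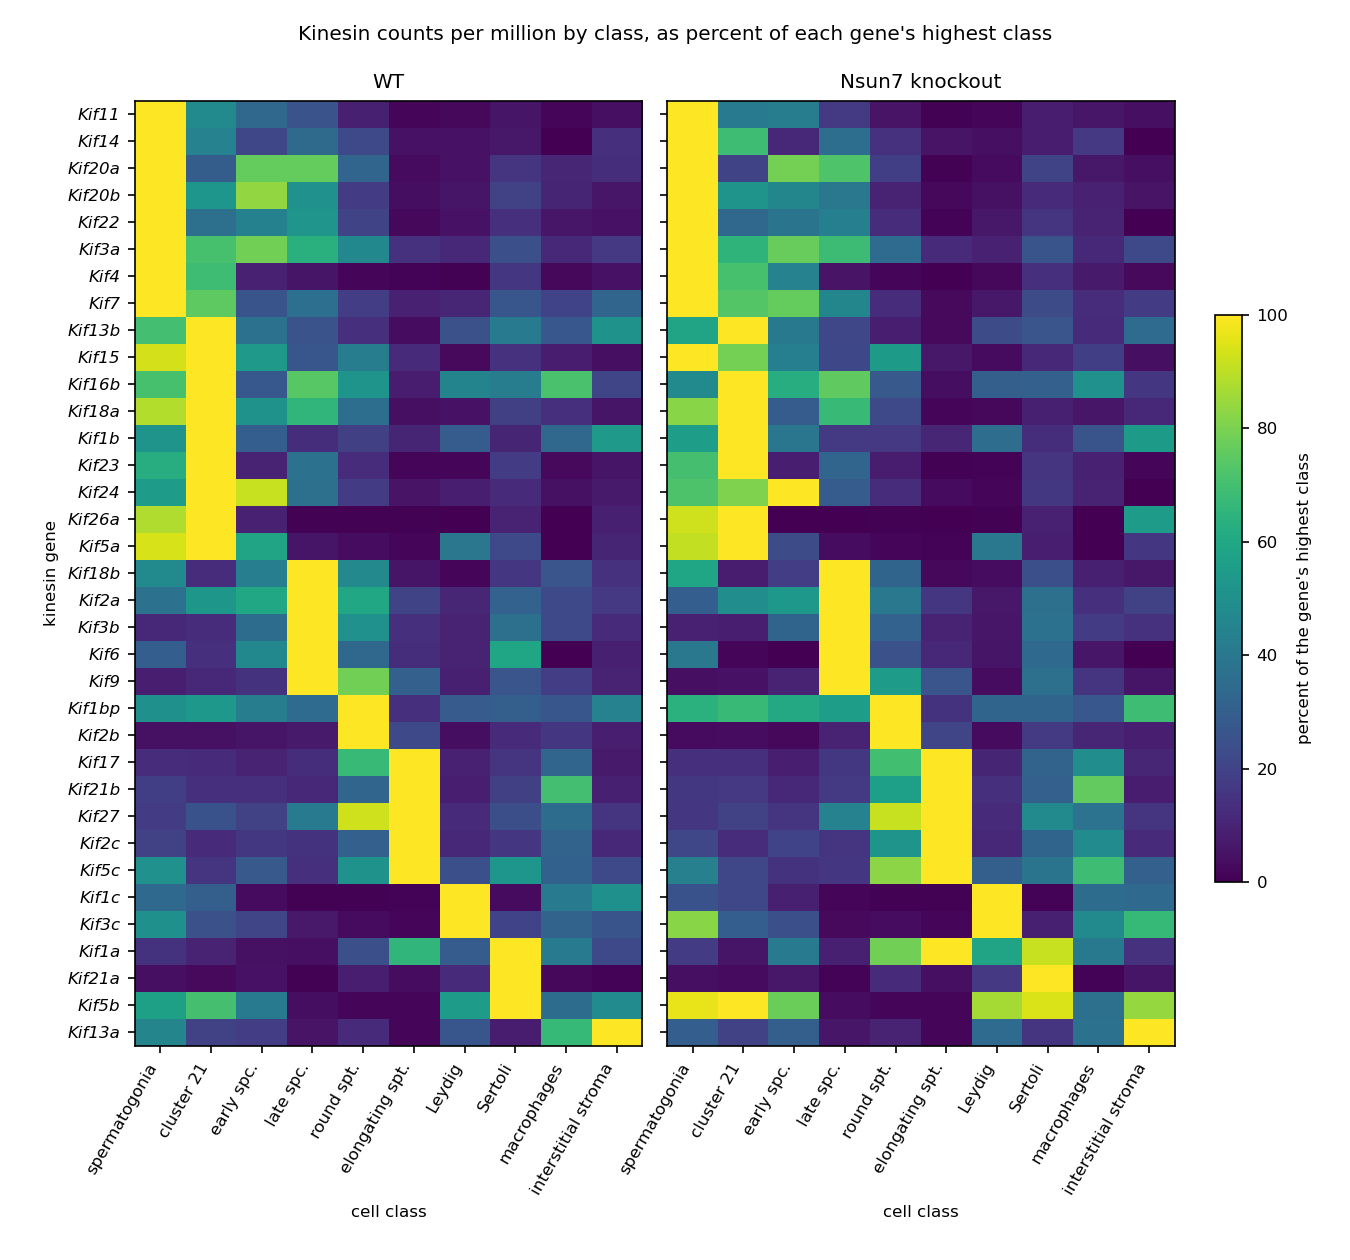
Level of 35 kinesin genes in 10 cell classes of the WT library (left) and the Nsun7 knockout library (right), with colour giving CPM as percent of the same gene's highest drawn class in that library. Rows are ordered by the class that is highest in WT (spc., spermatocytes; spt., spermatids), and the bright cells run along the same diagonal in both panels.

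The kinesin-13 genes Kif2a, Kif2b and Kif2c succeeded each other over the last 3 germ classes. Their products have no walking activity and remove tubulin from microtubule ends, Kif2c being the centromere-associated member also called MCAK. Kif2a (chr13:106958996-107022126 of GRCm38, 22 exons) was at 120.4, 171, 193, 323, 194 and 66.8 CPM in WT against 102, 165, 181, 338, 135 and 53.0 CPM in the knockout library. It was highest in late spermatocytes of both libraries. Kif2b (chr11:91575315-91577558), a gene of a single exon, was at 35.9, 34.1, 44.6, 55.8, 779 and 173 CPM in WT against 21.8, 26.2, 16.7, 75.9, 795 and 166 CPM in the knockout library. From late spermatocytes to round spermatids Kif2b was higher by 14-fold (interval 13.5 to 14.4) in WT and 10.5-fold (interval 9.78 to 11.2) in the knockout library. Kif2c (chr4:117159639-117182639, 20 exons) was at 124, 75.2, 101, 92.1, 191 and 624 CPM in WT against 141, 83.6, 134, 102, 346 and 668 CPM in the knockout library. Its level in elongating spermatids was 3.27-fold (interval 3.19 to 3.35) that of round spermatids in WT and 1.93-fold (interval 1.89 to 1.97) in the knockout library. The order Kif2a, Kif2b, Kif2c therefore held in both libraries, and the step of Kif2c into round spermatids was the larger one in the knockout library. Cluster 18, the round spermatid cluster with the most Kif2c of those compared, gave 18.4% of the WT and 40.1% of the knockout cells of that class. Cell mix and level per cell are not separated in this step.

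Within the classes the handover was visible from cluster to cluster. In cluster 11, a group of late spermatocytes, Kif2b was at 142 CPM in WT against 158 CPM in the knockout library, while the other late spermatocyte clusters 7 and 12 had 24.7 CPM in WT against 25.3 CPM in the knockout library and 18.2 CPM in WT against 16.8 CPM in the knockout library. Round spermatid cluster 6 had 475 CPM in WT against 488 CPM in the knockout library for Kif2b and 52.4 CPM in WT against 72.7 CPM in the knockout library for Kif2c. Both genes were high together in cluster 18, with 988 CPM in WT against 866 CPM in the knockout library for Kif2b and 529 CPM in WT against 571 CPM in the knockout library for Kif2c. Cluster 18 was named round spermatids on the lowest marker score of that class, with none of the markers among its 10 leading genes. Elongating spermatid cluster 0 had 108 CPM in WT against 89.6 CPM in the knockout library for Kif2b and 639 CPM in WT against 670.5 CPM in the knockout library for Kif2c. Kif24, a kinesin-13 member that acts at centrioles, stayed at or below 30.8 CPM in the WT classes and was highest there in cluster 21, where its interval overlapped that of early spermatocytes.

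The stretches just upstream of these genes are shown because the 3 genes of 1 family are highest in different classes. They are the 250 bases before the RefSeq start in GRCm38.p6, written 5′ to 3′ on the gene's strand, with matches in capitals to CCAAT, to the motif TTTGAA, to the motif TGACG or to the motif GTTGCC on either strand. The Kif2c stretch lies before a shorter transcript and inside an intron of a longer GENCODE transcript that starts further upstream.
Kif2a, chr13:107022356-107022605, minus strand: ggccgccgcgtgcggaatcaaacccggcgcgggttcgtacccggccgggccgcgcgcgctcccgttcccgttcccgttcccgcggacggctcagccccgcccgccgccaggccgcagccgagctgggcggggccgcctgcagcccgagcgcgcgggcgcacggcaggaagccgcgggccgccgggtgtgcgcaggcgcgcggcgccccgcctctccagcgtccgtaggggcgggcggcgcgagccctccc
Kif2b, chr11:91577556-91577805, minus strand: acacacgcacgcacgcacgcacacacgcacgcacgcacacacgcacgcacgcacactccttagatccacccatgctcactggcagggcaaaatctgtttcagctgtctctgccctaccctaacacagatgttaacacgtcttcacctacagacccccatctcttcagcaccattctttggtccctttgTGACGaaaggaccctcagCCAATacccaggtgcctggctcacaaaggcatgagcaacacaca
Kif2c, chr4:117178773-117179022, minus strand: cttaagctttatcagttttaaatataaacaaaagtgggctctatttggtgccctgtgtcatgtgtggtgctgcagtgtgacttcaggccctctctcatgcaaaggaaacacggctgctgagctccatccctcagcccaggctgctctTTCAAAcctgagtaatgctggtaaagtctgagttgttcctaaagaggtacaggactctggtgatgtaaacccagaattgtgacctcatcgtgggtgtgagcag
The Kif2a stretch holds none of the 4 motifs. The Kif2b stretch holds 1 CCAAT and 1 TGACG, and the Kif2c stretch 1 TTTGAA. Of all 27025 RefSeq promoters cut to this length, 34.5% hold CCAAT, 16.3% TTTGAA, 17.8% TGACG and 10.5% GTTGCC. Of the 32 members with an entry, 46.9% hold CCAAT, 21.9% TTTGAA, 43.8% TGACG and 21.9% GTTGCC. A match describes letters and says nothing of a bound factor.

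**Figure D2:**
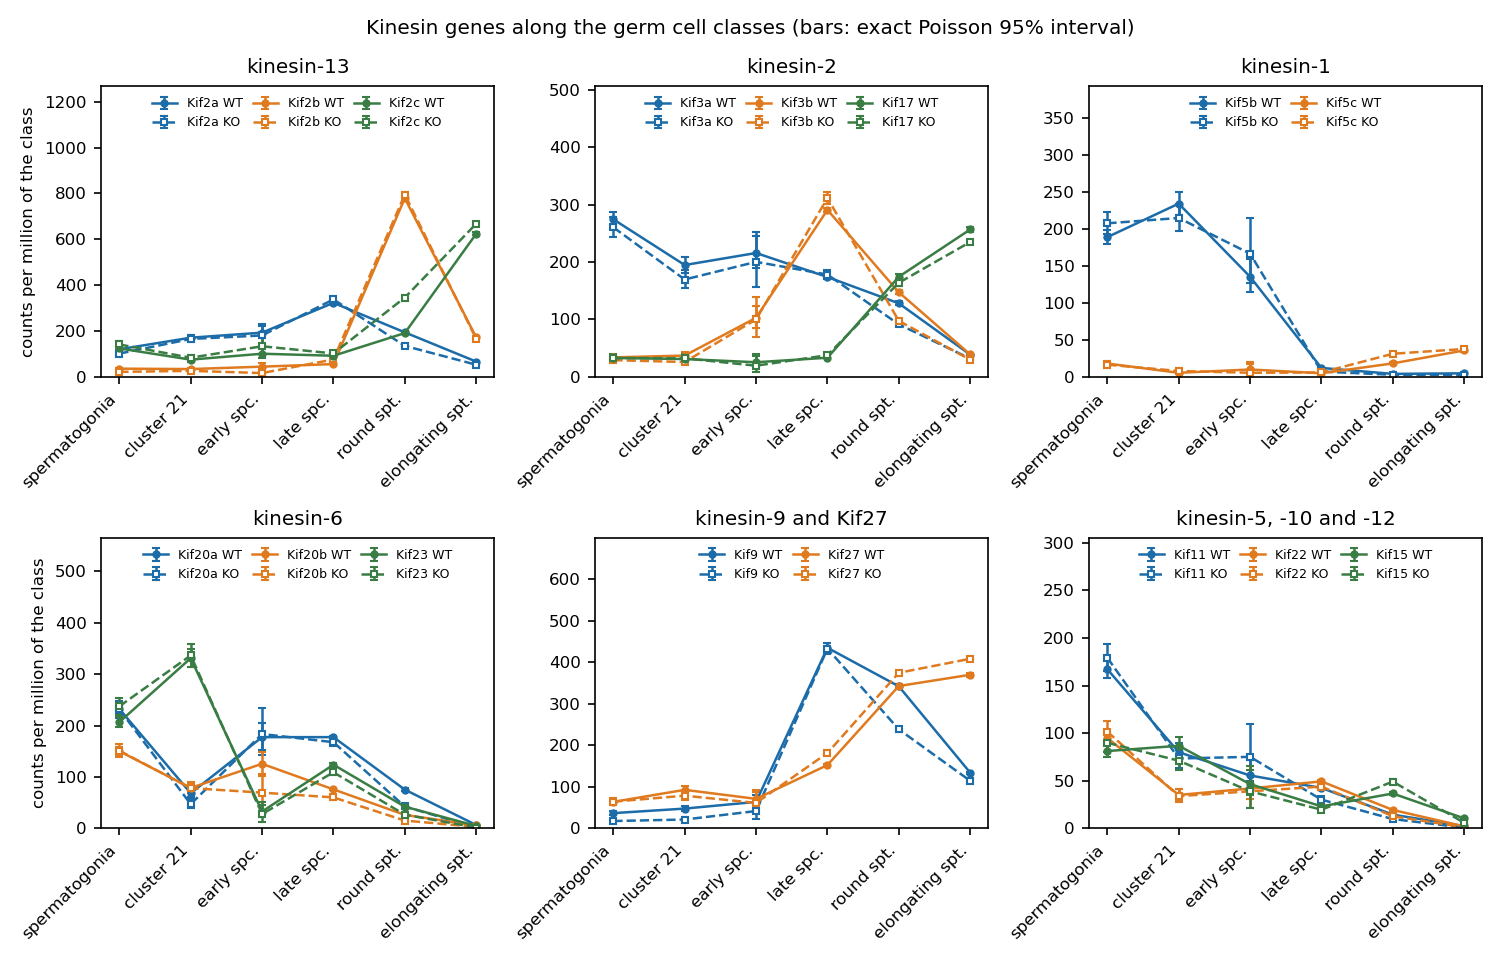
CPM of 16 kinesin genes (y axis) over the 6 germ cell classes (x axis; spc., spermatocytes; spt., spermatids), with solid lines for WT, dashed lines for the Nsun7 knockout (KO) library and bars for the exact Poisson 95% interval. Kif2a, Kif2b and Kif2c are highest in late spermatocytes, in round and in elongating spermatids, respectively, in both libraries.

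The kinesin-2 genes divided in the same way between early and late stages. Kif3a and Kif3b encode the motor subunits of heterotrimeric kinesin-2, which carries the intraflagellar transport trains, and Kif17 encodes the homodimeric kinesin-2. Kif3a (chr11:53567379-53601967) was at 274, 195, 216, 174, 128 and 38.8 CPM in WT against 260.4, 169.6, 200.3, 178, 91.4 and 31.8 CPM in the knockout library. Kif3b (chr2:153291413-153333390) was at 33.9, 37.1, 103, 291, 147 and 39.1 CPM in WT against 29.2, 25.9, 100.1, 311, 97.6 and 29.8 CPM in the knockout library. The 2 subunit genes thus had different highest classes, Kif3a spermatogonia and Kif3b late spermatocytes, and both were at under 40 CPM in elongating spermatids of both libraries. Kif17 (chr4:138250435-138301967) was at 32.9, 31.1, 25.5, 33.4, 174 and 257 CPM in WT against 33.0, 32.3, 19.5, 37.7, 164 and 235 CPM in the knockout library. Its step from late spermatocytes to round spermatids was 5.22-fold (interval 4.98 to 5.48) upward in WT and 4.34-fold (interval 3.92 to 4.81) in the knockout library. Kif3c, the alternative partner of Kif3a, did not reach 10 CPM in any germ class and was highest in Leydig cells, at 13.1 CPM in WT against 11.5 CPM in the knockout library.

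The stretch upstream of the RefSeq start of Kif17 is shown because Kif17 is the kinesin-2 motor gene whose highest class is a spermatid class. It holds TGACGTCA, which reads as TGACG on both strands, and 1 GTTGCC. Its last bases fall in the first exon of the GENCODE transcript, and another GENCODE transcript of Kif17 starts further upstream and overlaps exons of Sh2d5 on the same strand, so counts of the 2 genes may be mixed there.
Kif17, chr4:138262001-138262250, plus strand: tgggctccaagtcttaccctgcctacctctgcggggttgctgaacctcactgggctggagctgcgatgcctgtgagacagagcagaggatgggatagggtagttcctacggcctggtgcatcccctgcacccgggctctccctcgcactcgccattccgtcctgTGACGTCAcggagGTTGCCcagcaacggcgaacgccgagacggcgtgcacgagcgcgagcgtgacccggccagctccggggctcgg
Of the 8 members with an entry that were highest among germ classes in spermatids, 5 hold TGACG, and 1 holds GTTGCC. Of the 16 highest in spermatogonia, cluster 21 or early spermatocytes, 7 hold TGACG and 5 hold GTTGCC.

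Kinesin-1 genes changed over at meiosis. Kif5b encodes the widely expressed heavy chain of kinesin-1, and Kif5a and Kif5c encode heavy chains known mainly from neurons. Kif5b was at 189, 235, 136, 12.1, 4.05 and 4.83 CPM in WT against 208, 215, 167, 7.2, 2.83 and 2.56 CPM in the knockout library. From early to late spermatocytes Kif5b was lower by 11.2-fold (interval 9.34 to 13.3) in WT and 23.2-fold (interval 16.3 to 32.8) in the knockout library. Kif5c was at 18.1, 5.51, 10.01, 4.91, 18.2 and 35.8 CPM in WT against 16.5, 7.98, 5.56, 6.02, 31.3 and 37.8 CPM in the knockout library, and its highest class was elongating spermatids in both. Kif5a was at 20.5 and 21.8 CPM in WT spermatogonia and cluster 21, with overlapping intervals, and at under 2 CPM from late spermatocytes on in both libraries.

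Among kinesin-3 genes, which carry vesicles and organelles, the highest class was cluster 21 for Kif1b, Kif13b and Kif16b in both libraries. Kif1b was at 86.7, 168, 50.1, 22.2, 31.7 and 17.5 CPM in WT against 83.4, 149, 58.4, 25.4, 24.7 and 15.7 CPM in the knockout library. Kif13b was at 36.0, 51.4, 19.1, 13.2, 6.90 and 1.79 CPM in WT against 32.1, 55.1, 22.3, 11.8, 4.61 and 1.30 CPM in the knockout library. Kif16b, a motor of early endosomes, was at 43.1 CPM in WT against 49.0 CPM in the knockout library in cluster 21. Its next class was late spermatocytes, at 32.0 CPM in WT against 37.0 CPM in the knockout library. Kif14, a kinesin-3 member needed for cytokinesis, was highest in spermatogonia at 25.5 CPM in WT against 24.7 CPM in the knockout library. Kif1a was at 13.5 CPM in WT against 13.7 CPM in the knockout library in elongating spermatids and was below that in every other germ class. Kif1bp, which binds and holds back several kinesins, was at 68.0, 72.2, 57.3, 47.1, 135 and 18.3 CPM in WT against 67.5, 71.9, 64.0, 59.4, 106 and 15.4 CPM in the knockout library.

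Kif9 and Kif27 were highest from late spermatocytes on. Kif9 is a kinesin-9 motor of the axoneme, and Kif27 is a kinesin-4 relative of Kif7 known from motile cilia. Kif9 (chr9:110476958-110525179) was at 36.7, 47.6, 63.7, 435, 342 and 134 CPM in WT against 17.7, 21.3, 41.7, 433, 238 and 115 CPM in the knockout library. From early to late spermatocytes it was higher by 6.82-fold (interval 5.40 to 8.75) in WT and 10.4-fold (interval 6.28 to 18.5) in the knockout library. Kif27 (chr13:58287502-58359122) was at 63.7, 92.7, 71.0, 152, 342 and 369.6 CPM in WT against 64.2, 78.7, 61.2, 181, 374 and 408 CPM in the knockout library. It was higher in round than in late spermatocyte cells by 2.25-fold (interval 2.19 to 2.31) in WT and 2.06-fold (interval 1.97 to 2.17) in the knockout library. The class values of round and elongating spermatids were nearly level, but clusters of elongating spermatids differed. Kif27 was at 450 CPM in WT against 419 CPM in the knockout library in cluster 17. In cluster 14 it was at 60.4 CPM in WT against 76.5 CPM in the knockout library. Kif21b, a kinesin-4 motor, was at 9.63, 7.27, 7.28, 5.94, 17 and 52.0 CPM in WT against 8.25, 8.36, 5.56, 8.66, 28.7 and 50.7 CPM in the knockout library. Its highest class was elongating spermatids in both libraries, with an interval that overlapped that of macrophages in both. Kif6, the other kinesin-9 gene, was highest in late spermatocytes at 25.3 CPM in WT against 22.1 CPM in the knockout library. Exons of Kif27 overlap those of Gm26555 on the other strand, and no source used here says whether the counting used strand, so reads of the 2 cannot be told apart. The same holds for Kif2a and Dimt1.

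Most kinesins of the spindle and of cytokinesis were highest in spermatogonia or cluster 21. Kif11, the kinesin-5 motor that pushes spindle poles apart, was at 167, 80.0, 55.5, 42.5, 14.4 and 2.31 CPM in WT against 179, 73.4, 75.1, 30.2, 9.79 and 0.800 CPM in the knockout library. Kif22, a kinesin-10 motor on chromosome arms, was at 94.9, 35.1, 41.9, 49.3, 19.3 and 2.14 CPM in WT against 102, 33.8, 38.9, 43.9, 12.9 and 1.15 CPM in the knockout library. Kif15, a kinesin-12 spindle motor, was at 81.2, 86.7, 46.4, 23.1, 36.6 and 10.5 CPM in WT against 89.8, 71.1, 38.9, 19.6, 49.1 and 5.94 CPM in the knockout library. Kif11 and Kif22 were highest in spermatogonia, while Kif15 had overlapping intervals in WT spermatogonia and cluster 21 and a further higher value in round spermatids than in late spermatocytes. Kif18a, a kinesin-8 motor that aligns chromosomes, was at 54.8, 61.9, 31.9, 40.8, 22.4 and 2.48 CPM in WT against 55.1, 66.9, 19.5, 45.1, 14.9 and 1.19 CPM in the knockout library. Kif18b, its relative, was highest in late spermatocytes at 32.0 CPM in WT against 30.6 CPM in the knockout library. Kif4, a chromokinesin and the one member on chromosome X, was at 70.6, 48.6, 6.37, 3.92, 1.35 and 0.659 CPM in WT against 75.1, 53.2, 33.4, 4.10, 0.983 and 0.184 CPM in the knockout library. Its values in late spermatocytes and spermatids were all under 5 CPM in both libraries. Kif7, a regulator of hedgehog signalling at the cilium, was at 14 CPM in WT against 10.9 CPM in the knockout library in spermatogonia.

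The 3 kinesin-6 genes, whose products gather at the midzone of the dividing cell, had separate courses. Kif23 encodes a subunit of centralspindlin, which is also part of the stable bridges between germ cells. Kif23 (chr9:61915905-61946774) was at 207, 331, 32.8, 124, 42.2 and 4.82 CPM in WT against 237, 336, 27.8, 109, 26.7 and 1.64 CPM in the knockout library. It was highest in cluster 21, lower by 10.1-fold (interval 7.26 to 14.5) in early spermatocytes of WT and by 12.1-fold (interval 6.55 to 25.3) in those of the knockout library, and again higher in late spermatocytes. Kif20a was at 232, 68.4, 177, 178, 75.4 and 6.62 CPM in WT against 232, 47.1, 184, 168, 42.6 and 1.57 CPM in the knockout library. It was lower in cluster 21 than in the classes on either side of it in both libraries. Kif20b was at 150.2, 78.7, 126, 75.8, 26.3 and 5.69 CPM in WT against 151, 78.3, 69.5, 60.3, 15.2 and 2.98 CPM in the knockout library. In late spermatocytes the level of Kif20a was 205 CPM in WT against 173 CPM in the knockout library in cluster 7, 195 CPM in WT against 182 CPM in the knockout library in cluster 11 and 119 CPM in WT against 124 CPM in the knockout library in cluster 12. Exons of Kif20a overlap those of Cdc23 on the other strand.

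Of the 35 members that reached 10 CPM in WT, 7 had their highest WT class among somatic cells. For Kif1c, Kif3c, Kif13a and Kif26a the interval of that class overlapped that of the next one. For Kif26a the next class was a germ class, cluster 21 at 39.4 CPM. Kif5b was at 332 CPM in WT against 203 CPM in the knockout library in Sertoli cells, the supporting cells of the tubule. Kif21a, a kinesin-4 motor, was at 212 CPM in WT against 132 CPM in the knockout library there, and its next class in WT was Leydig cells at 25.0 CPM. Kif1a was at 20.5 CPM in WT against 12.5 CPM in the knockout library in Sertoli cells, and in the knockout library its value in elongating spermatids was the higher one, with overlapping intervals. The Sertoli markers also had a lower summed level in the knockout library, 15682 CPM in WT against 10378 CPM. At Leiden resolution 2 the Sertoli cells formed cluster 16, with 480 WT and 448 knockout cells, and cluster 29, with 127 and 19, and the part of these shifts in the lower kinesin values was not tested. Kif13a was at 39.8 CPM in WT against 36.5 CPM in the knockout library in interstitial stroma. Kif1c was at 71.1 CPM and Kif26a at 57.9 CPM in WT peritubular myoid cells, a class with 122 WT cells and only 41 knockout cells that was not compared. Its leading genes held Acta2 and Tagln but also Cldn5 and Ly6c1. At resolution 2, Cldn5 and Ly6c1 led an endothelial cluster of 53 WT and 7 knockout cells, beside a myoid cluster of 69 and 34. The part of endothelial cells in the Kif1c and Kif26a values was not tested. Kif1c in Leydig cells was at 61.2 CPM in WT against 62.1 CPM in the knockout library, and its interval in WT overlapped that of the myoid cells. In macrophages Kif5b was at 118 CPM in WT against 79.8 CPM in the knockout library, and in interstitial stroma Kif1b was at 90.9 CPM in WT against 80.8 CPM in the knockout library.

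Genes of spermatids were also counted in somatic cells. Kif2c in Sertoli cells was at 98.3 CPM in WT against 215 CPM in the knockout library, and the estimate of free RNA there was 40.1 and 63.2 CPM. Kif27 in Sertoli cells was at 89.0 CPM in WT against 193 CPM in the knockout library, with an estimate of 34.6 and 42.2 CPM. Kif2c in macrophages was at 199 CPM in WT against 323 CPM in the knockout library, with an estimate of 77.2 and 99.3 CPM. These levels stood above the estimate in both libraries, and the summed level of Prm1, Prm2, Tnp1 and Tnp2 in Sertoli cells was 25.7% of that over all barcodes in WT and 36.5% in the knockout library. The part of spermatid RNA in these somatic values was not tested. In Leydig cells the values of Kif2b, 30.1 CPM in WT against 24.1 CPM in the knockout library, were below the estimate of 45.1 and 26.6 CPM.

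The comparison of the knockout with the WT library took members with a mean of at least 10 CPM and called a difference where the ratio, with 5 CPM added to both values, was past 1.5-fold. In late spermatocytes, 0 of 21 members were past it in either direction, against 0.313% of 7982 genes lower and 2.71% higher. The lowest ratio was that of Kif11, at 42.5 CPM in WT against 30.2 CPM in the knockout library, and the highest that of Kif2b, at 55.8 CPM in WT against 75.9 CPM in the knockout library. In elongating spermatids, 0 of 13 members were past 1.5-fold, against 8.12% of 4703 genes lower and 0.0213% higher. The lowest there was Kif3b at 39.1 CPM in WT against 29.8 CPM in the knockout library and the highest Kif27 at 369.6 CPM in WT against 408 CPM in the knockout library. The median log2 ratio of the members was 0.03 in late spermatocytes and -0.12 in elongating spermatids, beside -0.03 and -0.07 over all genes tested. Trimmed mean scaling moved all ratios of elongating spermatids by 0.36 on the log2 scale and those of round spermatids by the same amount, upward for the knockout library, and in late spermatocytes by 0.03.

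Both classes drew on different clusters in the 2 libraries. Cluster 12 gave 21.1% of the WT and 7.84% of the knockout late spermatocytes, and elongating spermatids came mainly from clusters 0, 1 and 17 in WT and from clusters 2, 3, 4 and 5 in the knockout library. Ratios within clusters were taken where both libraries had at least 50 cells. Elongating clusters 2, 3 and 4, with 44, 26 and 35 WT cells, were thus not compared. They held 19.2%, 11.9% and 20.4% of the knockout elongating spermatids. In late spermatocyte cluster 7, 0 of 22 members were past 1.5-fold, against 0.617% of all genes lower and 3.46% higher, and in cluster 11, 0 of 19, against 1.37% and 1.27%. In cluster 12, 1 of 22 was lower, against 0.695% of genes lower and 2.84% higher. It was Kif11, at 45.1 CPM in WT against 27.2 CPM in the knockout library. In elongating spermatid cluster 1, which had 1723 WT but only 61 knockout cells, 2 of 13 members were lower and 1 higher, against 2.03% of genes lower and 7.46% higher. Kif1a was at 15.2 CPM in WT against 5.44 CPM in the knockout library there and Kif3b at 47.6 CPM in WT against 28.5 CPM in the knockout library, while Kif2b was at 52.2 CPM in WT against 102 CPM in the knockout library. In cluster 5, with 137 WT and 1676 knockout cells, 1 of 13 was higher, against 11.6% of genes lower and 3.58% higher. It was Kif27, at 180.1 CPM in WT against 286 CPM in the knockout library, a ratio of 1.59 (interval 1.36 to 1.86). In cluster 13, 1 of 15 was lower, against 10% of genes lower and 0.339% higher. It was Kif21a, at 15.1 CPM in WT against 6.65 CPM in the knockout library. In the other elongating clusters compared, 0 members were past 1.5-fold. These were cluster 0 with 13 members, against 5.96% of genes lower and 0.132% higher, cluster 14 with 10, against 18.9% and 2.18%, and cluster 17 with 15, against 1.79% and 0.573%.

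**Figure D3:**
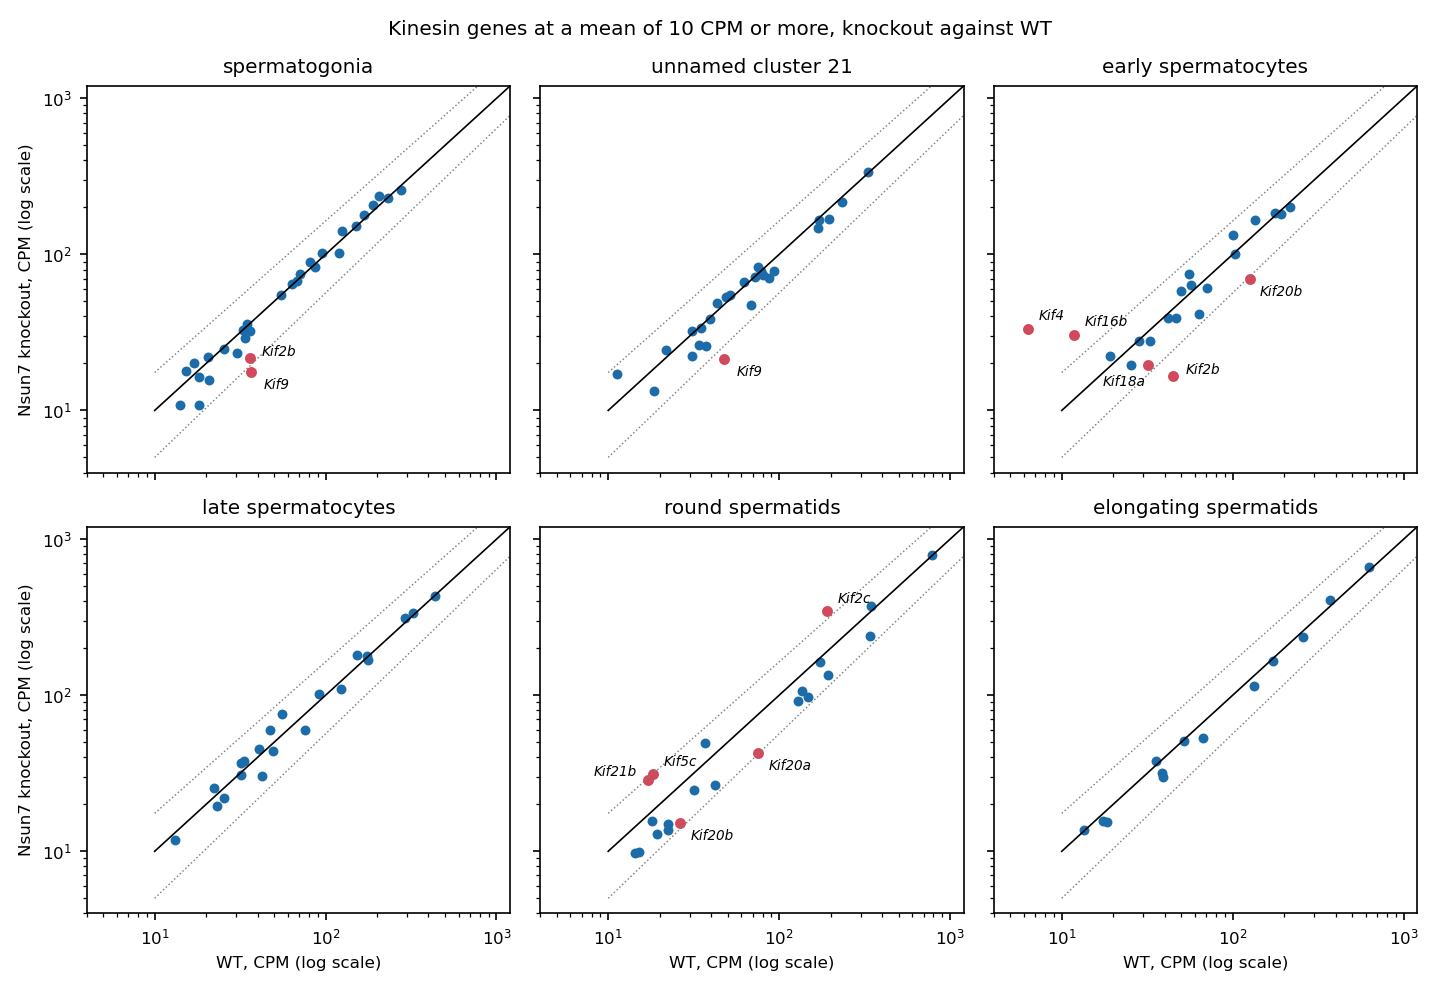
CPM of kinesin genes in the Nsun7 knockout library (y axis, log scale) against WT (x axis, log scale), 1 panel per germ class and 1 point per gene with a mean of 10 CPM or more. The solid line marks equal levels and the dotted lines 1.5-fold with 5 CPM added, and red named points lie past them: 2 in spermatogonia, 1 in cluster 21, 5 in early spermatocytes, none in late spermatocytes, 5 in round spermatids and none in elongating spermatids.

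In round spermatids, 2 of 22 members were past 1.5-fold lower in the knockout library and 3 higher, against 12.1% of 7915 genes lower and 6.54% higher. Kif2c was 1.81-fold higher (interval 1.76 to 1.87), at 191 CPM in WT against 346 CPM in the knockout library. Kif5c was 1.72-fold higher (interval 1.55 to 1.90), at 18.2 CPM in WT against 31.3 CPM in the knockout library, and Kif21b was 1.69-fold higher (interval 1.52 to 1.87), at 17 CPM in WT against 28.7 CPM in the knockout library. All 3 have elongating spermatids as their highest class, as do Kif17, at 174 CPM in WT against 164 CPM in the knockout library in round spermatids, and Kif27, at 342 CPM in WT against 374 CPM in the knockout library, which were not past the fold. Kif20a was 1.77-fold lower (interval 1.65 to 1.90), at 75.4 CPM in WT against 42.6 CPM in the knockout library, and Kif20b was 1.73-fold lower (interval 1.54 to 1.95). Both lower members are kinesin-6 genes that had higher levels before the spermatid stage. The median log2 ratio was -0.41 over the members and -0.29 over all genes tested, and relative to the latter Kif2c stood at 1.13 and Kif20a at -0.47. With trimmed mean scaling the split was 0 lower and 4 higher.

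The round spermatid class was not made of the same cells in both libraries. Cluster 6 gave 41.6% of its WT cells and 29.5% of its knockout cells, cluster 8 gave 39.1% and 29.9%, and cluster 18 gave 18.4% and 40.1%. When both libraries were given the same cluster mix, 0 of 22 members were past 1.5-fold, beside 0.19% of all genes. In cluster 6, 0 of 19 members were past it, against 0.122% of 8166 genes lower and 0.833% higher, and in cluster 8, 0 of 20, against 0.552% of 7972 genes lower and 0.138% higher. In cluster 18, 1 of 16 was lower, Kif20b, against 5.97% of 5949 genes lower and 0% higher. The ratio of Kif2c, knockout over WT, was 1.39 (interval 1.23 to 1.56) in cluster 6, 1.16 (interval 1.08 to 1.25) in cluster 8 and 1.08 (interval 1.04 to 1.12) in cluster 18. The ratio of Kif20a was 0.881 (interval 0.809 to 0.958) in cluster 6 and 1.05 (interval 0.925 to 1.2) in cluster 8. Kif20b was at 45.8 CPM in WT against 30.5 CPM in the knockout library in cluster 8 and 15.1 CPM in WT against 8.07 CPM in the knockout library in cluster 18, where its ratio was 0.533 (interval 0.409 to 0.693).

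**Figure D4:**
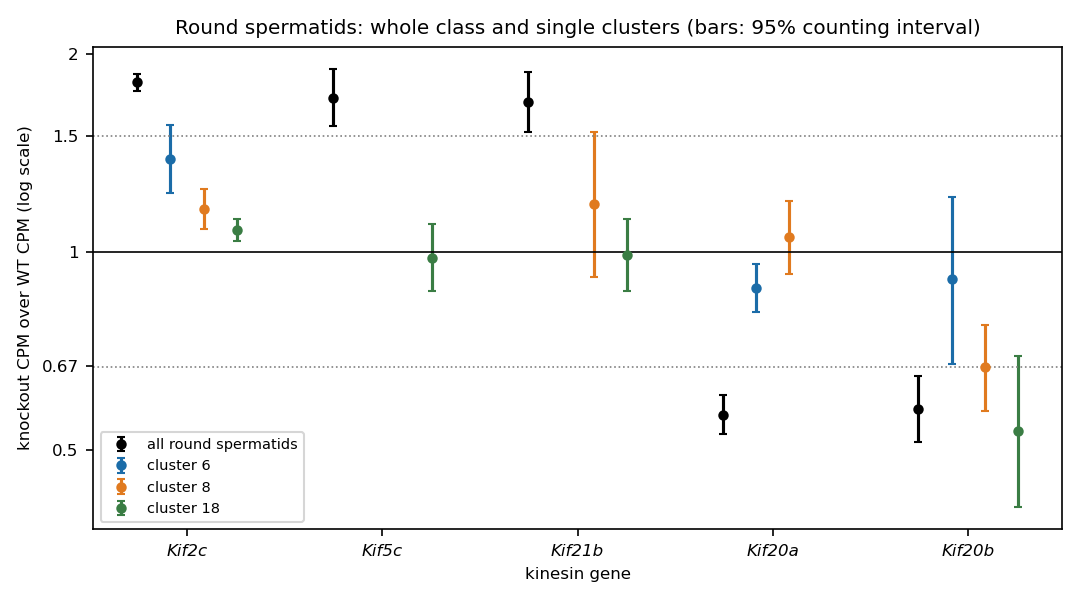
Ratio of knockout CPM to WT CPM (y axis, log scale) for the 5 kinesin genes past 1.5-fold in round spermatids (x axis), for the whole class in black and for clusters 6, 8 and 18 in colour where the gene had a mean of 10 CPM or more, with bars for the 95% counting interval and dotted lines at 1.5-fold. The cluster ratios of Kif2c, at 1.39, 1.16 and 1.08, and those of Kif20a, at 0.881 and 1.05, all lie nearer to 1 than the class ratios of 1.81 and 0.565, whereas Kif20b in cluster 18, at 0.533, lies further from 1 than its class ratio of 0.578.

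In spermatogonia, 2 of 30 members were past 1.5-fold lower in the knockout library and none higher, against 2.86% of 9820 genes lower and 1.07% higher. They were Kif2b, at 35.9 CPM in WT against 21.8 CPM in the knockout library, and Kif9, at 36.7 CPM in WT against 17.7 CPM in the knockout library. Both are genes whose highest classes come later, and the estimate of free RNA in spermatogonia was 23.6 and 17.6 CPM for Kif2b and 27.4 and 10.9 CPM for Kif9. With that estimate subtracted, 0 members were past 1.5-fold and the log2 ratio of Kif9 went from -0.88 to -0.27. In cluster 21, 1 of 26 members was lower, Kif9 at 47.6 CPM in WT against 21.3 CPM in the knockout library, against 4.72% of 9268 genes lower and 0.95% higher. After the same subtraction 0 were past 1.5-fold there. The highest ratio in spermatogonia was that of Kif23, at 207 CPM in WT against 237 CPM in the knockout library.

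In early spermatocytes, 3 of 22 members were past 1.5-fold lower and 2 higher, against 14.3% of 8649 genes lower and 11.4% higher. This class had 55 knockout cells and 359524 knockout counts. When counts of this class were simulated, 1001 of 8506 unchanged genes were also past the fold. The lower members were Kif2b with 49 WT and 6 knockout counts, Kif18a with 35 and 7, and Kif20b with 138 and 25. Kif2b is highest in round spermatids. The summed level of Prm1, Prm2, Tnp1 and Tnp2 in this class was 26.8% of that over all barcodes in WT and 12.4% in the knockout library. The part of spermatid RNA in the Kif2b values was not tested. The higher ones were Kif4 with 7 and 12 counts and Kif16b with 13 and 11. The interval of Kif18a covered no difference.

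The same comparison was made in the somatic classes. In Leydig cells 2 of 18 members were lower and 0 higher, against 5.75% of 8723 genes lower and 0.447% higher. They were Kif2a with 166 WT and 122 knockout counts and Kif9 with 184 and 82. Kif2a was at 35.1 CPM in WT against 21.2 CPM in the knockout library there, with a free RNA estimate of 36.1 and 9.65 CPM. Kif9 was at 39.0 CPM in WT against 14.2 CPM in the knockout library, with an estimate of 52.4 and 16.5 CPM. The part of free RNA in these ratios was not tested. In Sertoli cells 3 of 25 were lower and 3 higher, against 22.6% of 9976 genes lower and 10.4% higher. The lower ones were Kif5b, Kif21a and Kif6, the last with 56 and 15 counts. The higher ones were Kif2c, Kif27 and Kif17, the last at 39.9 CPM in WT against 75.1 CPM in the knockout library with a free RNA estimate of 18.7 and 23.0 CPM. In macrophages 3 of 21 were lower, Kif2a, Kif13a and Kif13b, and 4 higher, Kif2c, Kif5c, Kif15 and Kif23, against 23.1% of 9525 genes lower and 7.41% higher. Apart from Kif2c and Kif23, the intervals of these covered no difference. In interstitial stroma 3 of 17 were lower, Kif9, Kif20a and Kif23, and 1 higher, Kif26a, against 12.4% of 10323 genes lower and 7.96% higher. Kif20a was at 30.7 CPM in WT against 9.62 CPM in the knockout library there, with a free RNA estimate of 29.5 and 5.09 CPM. The part of free RNA in the ratios of this class was not tested. Over all genes tested the median log2 ratio was -0.24 in Sertoli cells and -0.20 in macrophages.

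Over all kept cells, Kif20a and Kif2c differed more between the libraries than within the stages named beside them here. Kif20a was at 91.7 CPM in WT against 23.7 CPM in the knockout library over all cells, and at 178 CPM in WT against 168 CPM in the knockout library in late spermatocytes. Kif2c was at 294 CPM in WT against 543 CPM in the knockout library over all cells, and at 624 CPM in WT against 668 CPM in the knockout library in elongating spermatids. In round spermatids, however, both genes were past 1.5-fold in the same direction as over all cells, as given above. Late spermatocytes made up 23.8% of the WT and 8.65% of the knockout cells, and elongating spermatids 32.3% and 59.0%. A difference in the number of cells of a stage and one in RNA per cell cannot be told apart in such whole-library values.

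The other genes of the kinesin pathway were read from 4 lists of 50 symbols, 1 of which is Kif1bp. Kifap3, the accessory subunit of kinesin-2, was at 86.2, 111, 148, 115, 545 and 370.0 CPM in WT against 76.6, 107, 147, 146, 553 and 384 CPM in the knockout library. Its highest class was round spermatids in both libraries. Among kinesin light chains, Klc1 was at 55.6 CPM in cluster 21 and 4.28 CPM in late spermatocytes of WT, and Klc3, a light chain of spermatids, was at 45.9 CPM in WT against 45.3 CPM in the knockout library in elongating spermatids. Klc1 was thus low from late spermatocytes on, as was Kif5b. Among kinesins under other names, Cenpe was at 189, 93.7, 143, 200.1, 71.3 and 6.71 CPM in WT against 186, 89.7, 142, 229, 45.5 and 2.09 CPM in the knockout library.

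Of the spindle and midzone partners, Tex14, which keeps germ cell bridges open, was at 250.4, 357, 111, 88.8, 48.4 and 13 CPM in WT against 238, 346, 147, 80.7, 35.7 and 9.44 CPM in the knockout library. It was highest in cluster 21 in both libraries, as was Kif23. Aurka, a spindle kinase that is also one of the late spermatocyte markers, was at 478 CPM in WT against 459.6 CPM in the knockout library in late spermatocytes. Of 17 partners tested in late spermatocytes, 0 were past 1.5-fold, beside 0.313% of all genes lower and 2.71% higher. In round spermatids 6 of 13 were lower and 0 higher, beside 12.1% and 6.54% of all genes. With the same cluster mix, an alternative added after the values had been seen, 0 of 13 were past it. The dynein light chains Dynll1 and Dynll2, which also serve other proteins, were at 2190.0 CPM in WT against 2158 CPM in the knockout library and 1765 CPM in WT against 2112 CPM in the knockout library in elongating spermatids. Of 7 dynein subunits tested there, 2 were lower, beside 8.12% of all genes. They were the heavy chain Dync1h1, at 21.3 CPM in WT against 12.3 CPM in the knockout library, and the intermediate chain Dync1i2, at 17.6 CPM in WT against 9.21 CPM in the knockout library. In late spermatocytes 1 of 11 was past 1.5-fold, beside 2.71% of all genes higher, and it was Dynll2, at 106 CPM in WT against 183 CPM in the knockout library. In macrophages 8 of 11 dynein subunits were lower and 1 higher, beside 23.1% and 7.41% of all genes.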

How the data were processed

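The deposited matrices hold raw counts per gene and barcode, taken here as UMIs. PISA 0.12 wrote them, per the file headers. GRCm38 is the build that the submitters' notes list. No source used here names the aligner, annotation, strand setting or barcode filter, and the smallest barcode total was 1001 counts in both libraries. Per the labels' protocols, testes were dissociated to single cells for a droplet system.

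Barcodes needed 200 genes or more and no more than 20% mitochondrial counts. Doublets called by Scrublet were left in. Counts scaled to 10000 per cell and logged gave 3000 variable genes, without kinesin, partner or Nsun7 genes, then 40 principal components, 20 neighbours and Leiden clusters at resolution 1 (scanpy 1.11.5, igraph 0.11.9). Clusters took the name of the class whose markers had the highest mean log2 fold against the other clusters. No name was given above 50% called doublets (clusters 10 and 25), where the 10 leading genes held more markers of a different class, or where counts were low and no own marker led. These details of naming were chosen with the clusters in view, and the members, families, partner lists and rules were chosen with earlier results of these data known.

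The counts of a class were added up in each library and given as CPM with exact Poisson intervals, and folds have exact conditional binomial intervals. Classes with at least 50 cells in each library were compared, and with 1 library per genotype nothing was tested. Free RNA in a class was estimated as its share of Insl3, Star, Cyp17a1 and Cyp11a1 relative to all barcodes, times each gene's CPM over all barcodes, and in Leydig cells from Prm1, Prm2, Tnp1 and Tnp2 instead. Full germ class values are given for members at 50 CPM or more in a WT germ class, ratios for members past 1.5-fold and for the extremes of a class, and somatic values for members highest there. The calculations were tested on simulated data. Coordinates come from GENCODE M21 and promoters from RefSeq, both on GRCm38, with 39 of 39 symbols matched in the former and 32 in the latter. Kifap3, the Kifc genes and Kif16bos do not match the rule for members. Alternatives were doublet removal, a stricter cell filter, other clusterings, TMM scaling, a fixed cluster mix, free RNA subtraction, a minimum of 50 CPM and a prior of 1 CPM.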

Additional observations from a re-analysis of the deposited data

Results flagged for a closer look

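Kif23 stood out for opposite directions in somatic classes. In macrophages it had 6 counts in WT and 22 in the knockout library, a log2 ratio of 1.40 with 5 CPM added to both. In interstitial stroma it had 17 counts in WT and 3 in the knockout library, a log2 ratio of -1.17. There its level was 19.3 CPM in WT against 5.77 CPM in the other library, beside free RNA estimates of 22.8 and 4.91 CPM. The difference between the 2 classes was not tested, and each rests on fewer than 25 counts per library.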

How the results depend on the processing

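The number of members highest in each stretch of germ cell stages or in somatic classes stayed within 1.5 times of the main one under the 5 alternatives run for it. For the 21 members at 50 CPM or more in a WT germ class, 0 levels in their highest germ class moved by over 1.5 times, with ratios to the main level from 0.758 to 1.28, and 15 of the 21 had a value at resolution 2 and with each library clustered on its own. Counts of members past 1.5-fold moved. In spermatogonia the main count was 2. It was 1 without called doublets, at resolution 2, with each library clustered on its own and with TMM scaling, 4 with at least 500 genes and at most 10% mitochondrial counts, and 0 with free RNA subtracted or a minimum of 50 CPM. In cluster 21 the main count was 1, against 3 under the stricter cell filter and 0 with free RNA subtracted or a minimum of 50 CPM. In early spermatocytes it was 5, against 1 at resolution 2 and 1 with a minimum of 50 CPM, and the log2 ratio of Kif18a there reversed from -0.59 to 0.11 at resolution 2. In late spermatocytes it was 0, against 8 of 20 with each library clustered on its own, where 33.5% of all genes were past the fold. In round spermatids it was 5, against 0 at resolution 2, with each library clustered on its own and with the same cluster mix, 2 with a minimum of 50 CPM and 8 with a prior of 1 CPM. These settings also put other cells into the classes. With each library clustered on its own, 910 knockout cells nearest to late spermatocytes stayed unnamed for low counts, and 682 carried that name. At resolution 2, clusters 2 and 6, nearest to round spermatids, stayed unnamed. Cluster 20 there, with 246 WT and 674 knockout cells, was named elongating spermatids, though Cst13 and Fam71b led it as they led main cluster 18. The part of these changes in the counts was not tested. Counts within somatic classes and single clusters were not recomputed. Cluster 21 was not recomputed in the other clusterings. Its leading genes Stra8 and Prss50 also led cluster 28 of resolution 2, with 596 WT and 322 knockout cells, named early spermatocytes. With each library clustered on its own, they led an early spermatocyte cluster of 590 WT cells and an unnamed cluster of 531 knockout cells. The early spermatocyte values of these settings therefore cover other cells than the main class. Under the stricter filter early spermatocytes had too few cells and gave no value. No paired analysis was possible because each genotype has 1 library, and no library could be left out for the same reason. Among germ classes depth was lowest in early spermatocytes, with 359524 counts in the knockout library.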

Other observations

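Kif26a, which encodes a kinesin-11 protein, had its highest germ class in cluster 21 of both libraries. It was at 34.7 CPM in spermatogonia and 39.4 CPM in cluster 21 of WT, and the knockout library had 35.6 CPM and 38.4 CPM. From early spermatocytes on it had at most 3.64 CPM in either library, and that value rests on 4 counts. In interstitial stroma Kif26a had 3 counts in WT and 11 in the knockout library.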
